A study of Homo sapiens with 52 samples.

Results

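The DUSP and Sprouty feedback genes are 10 genes whose products restrain MAP kinase signalling, chosen here by symbol among the 59408 genes listed in every deposited table: DUSP1, DUSP4, DUSP5, DUSP6, DUSP10, SPRY1, SPRY2, SPRY4, SPRED1 and SPRED2. All 10 were found, and all 10 passed the filter on low levels (a mean normalised read count of at least 10 over the 26 groups) that left 14898 genes for testing. They were followed in WI-38 cells, a normal human fibroblast line from fetal lung, by mRNA-seq. Cells were exposed for 24 h to 0.009% sodium dodecyl sulfate (SDS, a detergent that damages the plasma membrane; the cells are called PMD-Sen), to medium with 75 mM KCl (Ca2+-Sen) or to 250 nM doxorubicin (DXR, a DNA-damaging drug; DDR-Sen). They were then washed and collected at the end of the exposure (day 0), on each of the next 4 days, and on days 6, 8 and 16. Cells passaged until they stopped dividing (replicative senescence, RS) and young untreated cells completed the set. Each of the 26 groups had 2 libraries, all from a single cell line, and every comparison used the same untreated pair, so a value that is off in that pair moves all 25 comparisons together. Defining fibroblast genes were abundant: COL1A1 stood at a normalised read count of 273000 and VIM at 62958 in untreated cells, and all 10 fibroblast markers were above 10. White blood cell markers were near 0 (sum of 6 genes 1.85 in untreated cells, at most 27.5 in any group). Of the epithelial markers 3 of 6, and of the endothelial 3 of 5, were under 10 in untreated cells, CDH1, KRT5, CDH5 and KDR among them, while KRT8 (548), KRT18 (1375) and TEK (2317) were present. No list other than the fibroblast one was present in full.

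Growth factor receptors switch on RAS, which activates the RAF, MEK and ERK kinases in turn; stress drives the parallel JNK and p38 kinases. Dual-specificity phosphatases (DUSPs) remove phosphates from these MAP kinases, while Sprouty (SPRY) and SPRED proteins act higher up, between receptor and RAF. Many of these genes are themselves switched on by MAP kinase activity and so close a negative feedback loop, and their transcripts are short-lived, which is why their mRNA is often read as a trace of recent signalling.

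The deposited tables hold, for each gene, a mean normalised read count over the 4 libraries compared, a log2 fold change against untreated with its standard error (SE), and a p-value. Whole reads of the 10 genes in each of the 52 libraries were recovered from these means (520 values, from 21 to 11507 reads), and the log2 fold changes refitted from them differed from the deposited ones by at most 1.15e-06. The libraries of a pair are known only as the larger and the smaller one, and values are given in that order. Libraries held about 15.4 to 58.0 M reads counted in genes (median 28.8 M), and the untreated pair held 18.8 and 15.4 M. A gene was called when its deposited p-value, adjusted by Benjamini-Hochberg over the tested genes of that table, was under 0.05. Log2 fold changes compare a group with the untreated pair; bulk RNA cannot tell fewer expressing cells from less mRNA per cell.

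In untreated cells, levels compared per kilobase of exon (GENCODE v29 gene models) ran from DUSP1 at the top to DUSP4 at the bottom. DUSP1 led at 1359 and 1690 normalised reads per kilobase, followed by DUSP5 at 755 and 640 and DUSP10 at 380 and 436. SPRY2 had 299.7 and 355, and then SPRED1, DUSP6 and SPRY4 came with means between 264 and 282 and overlapping pairs, so the order of these 3 is not separated by the spread. SPRED2 had 215 and 212. SPRY1 (29.2 and 29.5) and DUSP4 (9.50 and 13.0) were far below the other 8. Their counts were small too, with 21 and 38 reads in the library that had fewest.

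**Figure D1:**
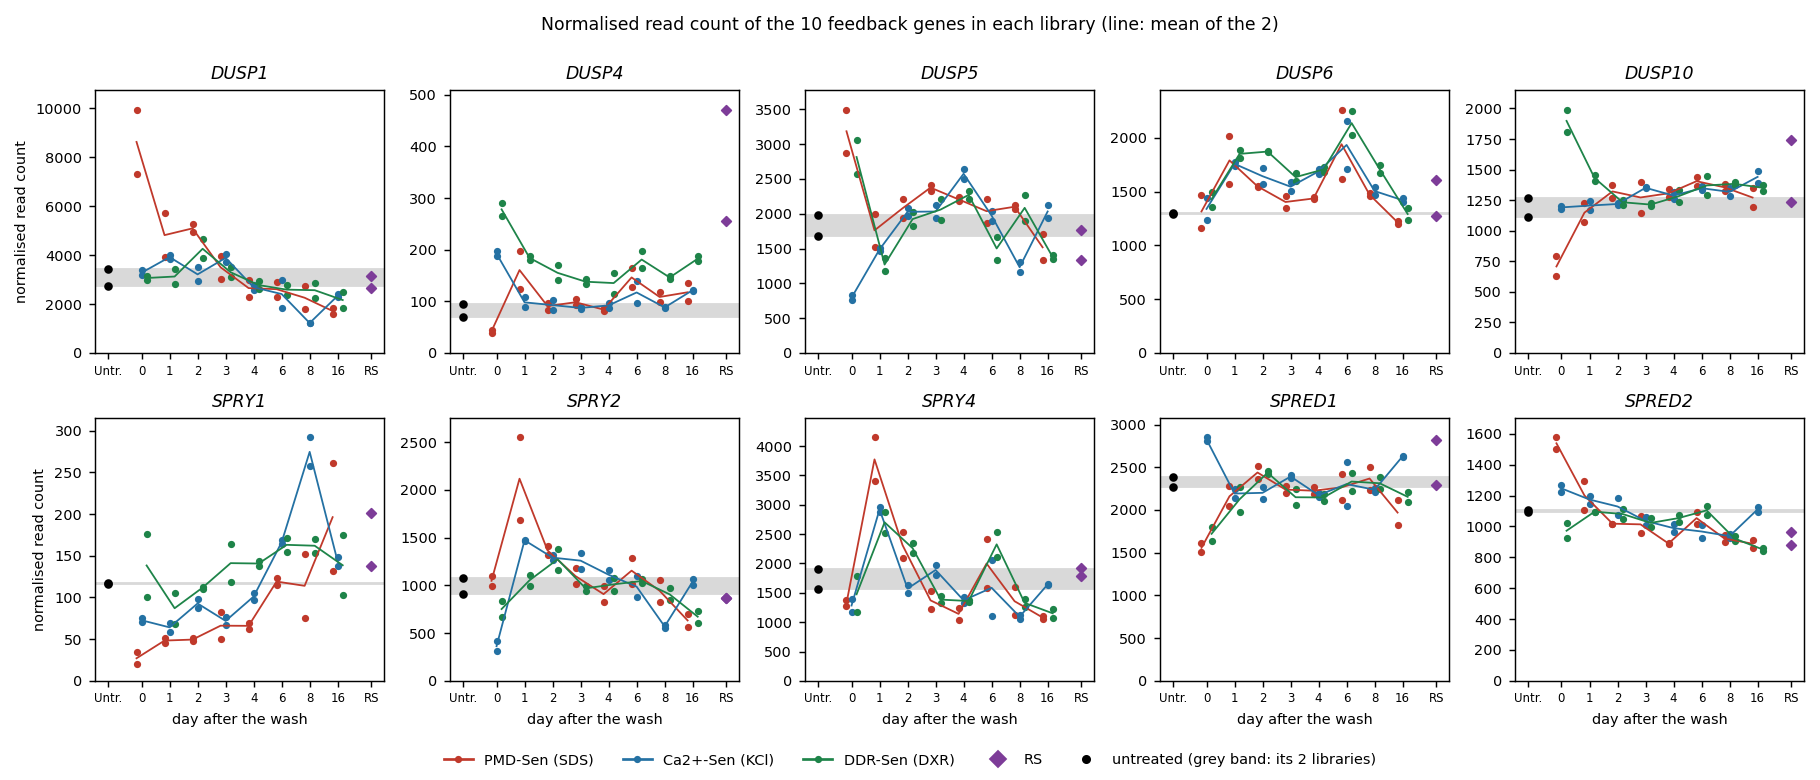
Normalised read count (vertical axis, from 0) of each of the 10 genes in every library by day after the wash; points are libraries, lines join the means of the 2, and the grey band spans the 2 untreated libraries. DUSP1 peaks in PMD-Sen on day 0 at 9951 and 7307, SPRY4 on day 1 at 3401 and 4148, and DUSP4 in RS at 256 and 471.

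Of the 250 values (10 genes in 25 tables), 71 were called, 43 higher and 28 lower than untreated. In all 71 both treated libraries lay outside the untreated pair on the same side. Such separation was common with 2 libraries a group: of all 250 pairs, called or not, 88 lay wholly above untreated and 68 wholly below. Reads of single libraries were recovered for the 10 genes only, so the share over all tested genes is not known. PMD-Sen had 22 calls of 80 (12 higher, 10 lower), Ca2+-Sen 20 (12 and 8), DDR-Sen 28 (18 and 10) and RS 1 of 10. The calls were spread unevenly over the days. In PMD-Sen 7 of the 10 genes were called on day 0, where 39.9% of all tested genes were; 5 on day 1 (19.7%) and 4 on day 2 (15.8%). Then 1 gene each was called on day 3 (11.5%), day 4 (15.7%) and day 6 (12.8%), none on day 8 (11.8%; 2 with an unadjusted deposited p under 0.05) and 3 on day 16 (21.2%).

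Ca2+-Sen had 5 called genes on day 0, against a background of 50.1% of tested genes, and 5 again on day 8, against 33.3%. Day 1 had 4 called genes (12.5%), and the days between had 1 on day 2 (4.33%), 1 on day 3 (10.5%), 2 on day 4 (12%) and 1 on day 6 (10.2%). One gene was called on day 16 (11.9%). Day 8 thus stood apart from days 6 and 16 for genes at large as well.

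DDR-Sen kept calls on every day: 5 genes on day 0 (27.9% of tested genes), 4 on day 1 (19.5%), 4 on day 2 (12.7%), 1 on day 3 (11.6%), 3 on day 4 (18.4%), 3 on day 6 (24.5%), 2 on day 8 (22%) and 6 on day 16 (29.8%). RS, with 23.1% of tested genes called, had DUSP4 alone. Over the 25 tables together 19.3% of values of all tested genes were called, 8.94% higher and 10.4% lower. These counts are of 10 genes a table, and their excess or shortfall against the background was not tested.

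Markers of the cells moved on some of the same days. Of the 10 fibroblast markers 7, 6 and 7 were called lower on days 0, 1 and 2 of PMD-Sen and 1, 0 and 2 higher, with median log2 fold changes of -0.95, -0.97 and -0.78 and summed levels of 512232, 314302 and 313284, against 592730 in untreated cells. Of all tested genes 39.9%, 19.7% and 15.8% were called in either direction on those days. The collagen genes COL1A1 (273000) and COL1A2 (171635) made up most of the untreated sum. On day 0 of Ca2+-Sen 6 fibroblast markers were called lower and 3 higher, where 50.1% of all tested genes were called in either direction. Their sum was at its lowest, 244653, while that of the 6 epithelial markers was at its highest (3801 against 1937, mostly KRT18). On day 8 of Ca2+-Sen, where 33.3% of all tested genes were called, 5 fibroblast markers were called higher and 4 lower, with the highest sum (625531). The 5 endothelial markers also had their highest sum there (5475 against 2354), almost all of it TEK (5437). PECAM1 stood at 2.18 in untreated cells and 107.6 in its highest group, and VWF at 34.6 and 72.1. CDH5 and KDR were under 10 in every group. DDR-Sen days held fibroblast sums of 482323 to 604903. The part of these shifts in the feedback gene values of the same days was not tested.

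**Figure D2:**
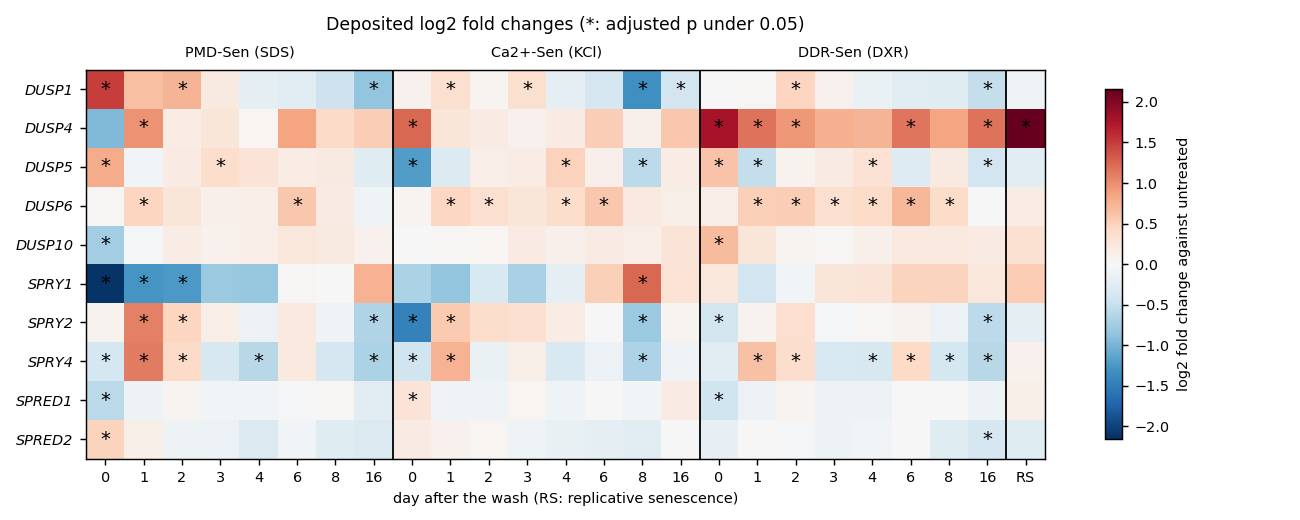
Deposited log2 fold change against untreated (colour, blue lower and red higher) of the 10 genes (rows) on each day of the 3 treatments and in RS (columns); stars mark adjusted p under 0.05. DUSP6 stars are all red, DUSP4 stars are all red, and SPRY4 turns from blue on day 0 to red on day 1 and back to blue on day 16 in PMD-Sen.

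DUSP1 encodes a nuclear phosphatase of ERK, JNK and p38 that cells make within minutes of stress; the gene lies at chr5:172768090-172771195 on the minus strand (GRCh38). Untreated libraries held 2744 and 3413 normalised reads. PMD-Sen on day 0 held 9951 and 7307, well above that pair. The log2 fold change was 1.49 ± 0.14 (SE), a 2.80-fold rise with adjusted p = 1.44e-23. On day 1 the libraries disagreed, at 3932 and 5703; both were above untreated, but with an SE of 0.31 the value of 0.65 was not called (adjusted p = 0.138). Day 2 brought a tight pair of 5263 and 4927 and a call of 0.73 ± 0.11 (adjusted p = 1.34e-09). By day 16 DUSP1 had crossed to the other side, with 1819 and 1612 reads and a log2 fold change of -0.84 ± 0.17 (adjusted p = 1.03e-05).

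KCl and DXR left DUSP1 near untreated on day 0, at 3183 and 3377 in Ca2+-Sen and 2981 and 3147 in DDR-Sen, inside the untreated range. Small rises were called in Ca2+-Sen on day 1 (0.35) and day 3 (0.34) and in DDR-Sen on day 2 (0.47). Ca2+-Sen on day 8 had the lowest level of the series, 1227 and 1220, with a log2 fold change of -1.33 ± 0.11 (adjusted p = 1.73e-29). On day 16 DUSP1 was also called lower in Ca2+-Sen (-0.40) and DDR-Sen (-0.51), so its last day was below untreated after all 3 treatments. The small values leaned on single libraries: without the larger untreated library the calls of Ca2+-Sen days 1 and 3 and DDR-Sen day 2 ended (0.20, 0.19 and 0.32), and without the smaller one those of Ca2+-Sen and DDR-Sen day 16 (-0.23 and -0.35). All 5 also ended without 1 treated library (sizes 0.27 to 0.35).

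Upstream of DUSP1, as upstream of all but DUSP4 and DUSP5 of the 10 genes, a RefSeq window (GRCh38.p14) was read. The 250 bases before the most upstream start that the RefSeq table lists were searched on both strands for the cAMP response element TGACGTCA, the shorter TGACG (which the full element also contains) and the AP-1 element TGANTCA. The 3 windows that hold any of these letters are shown, with the matches in capitals. Of these genes, DUSP1 had the highest log2 fold change of the 10 on day 0 of PMD-Sen, and SPRY2 and SPRY4 rose between day 0 and day 1 after SDS and KCl. Genes whose windows hold none of these letters rose over that day as well. DUSP10 (0.70) and SPRED1 (0.47) did so after SDS and DUSP6 (0.39) after KCl, while SPRED1 fell after KCl (-0.37). SPRY1 and SPRED2 had no call over that day after either. Whether the letters go with a response was not tested. The 3 windows lie on the minus strand at chr5:172771196-172771445 (DUSP1), chr13:80341127-80341376 (SPRY2) and chr5:142324248-142324497 (SPRY4), written 5′ to 3′. RefSeq and GENCODE v29 place some starts differently. The outermost start of the GENCODE model is the same for DUSP1 and SPRY1, but lies 2208 bases further upstream for SPRY4 and 38 to 770 bases further upstream for DUSP6, DUSP10, SPRED1 and SPRED2, so the SPRY4 window is inside that gene model. For SPRY2 the RefSeq start is the more upstream one.
DUSP1: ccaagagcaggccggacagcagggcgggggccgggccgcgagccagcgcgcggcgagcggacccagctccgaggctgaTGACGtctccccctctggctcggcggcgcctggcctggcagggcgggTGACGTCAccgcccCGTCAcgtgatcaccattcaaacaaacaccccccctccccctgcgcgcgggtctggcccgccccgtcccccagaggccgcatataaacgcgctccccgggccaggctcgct
SPRY2: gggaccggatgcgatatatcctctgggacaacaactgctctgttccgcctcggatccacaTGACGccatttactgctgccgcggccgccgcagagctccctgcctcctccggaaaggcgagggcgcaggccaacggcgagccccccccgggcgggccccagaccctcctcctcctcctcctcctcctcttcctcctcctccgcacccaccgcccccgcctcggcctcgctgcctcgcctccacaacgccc
SPRY4: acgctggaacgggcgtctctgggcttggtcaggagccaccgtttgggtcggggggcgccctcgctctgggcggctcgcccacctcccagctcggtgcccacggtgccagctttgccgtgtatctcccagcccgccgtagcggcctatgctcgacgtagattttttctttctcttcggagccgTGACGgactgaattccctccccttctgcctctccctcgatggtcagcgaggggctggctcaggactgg
The full element is in 1.75% of 27305 such windows (1 a gene) and, of those of the feedback genes, in DUSP1 only, 125 to 118 bases before the start. The shorter one is in 21.6% of windows and in DUSP1, SPRY2 and SPRY4. TGANTCA is in 6.57% and in none of the feedback genes' windows. These matches describe letters in a window and no binding was measured.

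DUSP4, an inducible nuclear phosphatase of the same kind, was scarce in untreated cells (69 and 94 normalised reads) and was never called lower. DXR raised it from day 0, when the libraries held 265 and 291, a log2 fold change of 1.78 ± 0.26 (adjusted p = 3.08e-10). All 8 DDR-Sen pairs stayed above the untreated pair and 5 were called: day 0, day 1 (1.18), day 2 (0.93), day 6 (1.15) and day 16 (1.17). The other days ranged from 0.73 on day 4 to 0.85 on day 8 without a call (adjusted p = 0.0512 on day 8). RS had the highest mean level of the series, from libraries of 256 and 471, which is 2.16 ± 0.39 on the log2 scale (4.46-fold, adjusted p = 8.41e-07). The RS libraries disagreed by 1.84-fold, the widest pair for this gene. Both exceeded every untreated and PMD-Sen library, but the lower one was under both DDR-Sen day 0 libraries, and without the higher one the RS value was 1.65, under the 1.78 of DDR-Sen day 0.

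After KCl the only called day of DUSP4 was day 0, at 197 and 188 (1.24 ± 0.29, adjusted p = 5.95e-05). The pairs of day 6 (96 and 138, 0.52 ± 0.39) and day 16 (121 and 123, 0.58 ± 0.34) were also above both untreated libraries, without a call. Under SDS the day 0 pair of 45 and 39 lay below untreated without a call (-0.96 ± 0.46, adjusted p = 0.0866), and day 1 was called at 0.97 ± 0.35 with libraries of 124 and 197. Without the larger untreated library the calls of PMD-Sen day 1 (0.75) and DDR-Sen days 2, 6 and 16 (0.72, 0.94 and 0.95) were lost. PMD-Sen day 1 was also lost without the smaller treated library (0.60), and DDR-Sen day 2 without either treated library (0.79 and 1.06).

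DUSP5, a nuclear phosphatase specific for ERK, moved in opposite directions on day 0. Untreated libraries held 1975 and 1675 normalised reads. SDS gave 3495 and 2873 (0.80 ± 0.13, adjusted p = 1.36e-08) and DXR 2570 and 3058 (0.62 ± 0.14, adjusted p = 4.53e-05), both above the untreated pair. KCl gave 756 and 831, less than every other library of this gene, at -1.21 ± 0.12 (adjusted p = 6.96e-21).

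From day 1 on DUSP5 swung through smaller changes. It was called lower in DDR-Sen on day 1 (-0.52) and day 16 (-0.41), and in Ca2+-Sen on day 8 (-0.57 ± 0.12, adjusted p = 1.16e-05). It was called higher on day 3 of PMD-Sen (0.38) and on day 4 of both Ca2+-Sen (0.50) and DDR-Sen (0.31). The calls of PMD-Sen day 3 and DDR-Sen day 4 ended without the smaller untreated library (0.27 and 0.20) or the larger treated one (0.35 and 0.27). Those of DDR-Sen days 1 and 16 ended without the larger untreated library (-0.40 and -0.28), the latter also without the larger treated one (-0.38).

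DUSP6, the cytoplasmic ERK phosphatase that is a standard reading of ERK activity, was never called lower. Its untreated libraries were the closest of the group at 1298 and 1289 normalised reads. The treated pair lay above them in 20 of 25 tables, but only 12 tables were called. All 25 used this same narrow untreated pair, and the share of such pairs over all tested genes is not known. On day 0 no treatment changed it by a called amount (log2 fold changes 0.02, 0.05 and 0.14). Day 1 then gave nearly one value after all 3 treatments, 0.47 ± 0.13 in PMD-Sen, 0.44 ± 0.10 in Ca2+-Sen and 0.52 ± 0.11 in DDR-Sen, each called. DDR-Sen held 6 calls from day 1 to day 8 with a peak on day 6 at 2249 and 2026 reads (0.72 ± 0.11, adjusted p = 1.83e-09). Ca2+-Sen was called on days 1, 2, 4 and 6 (0.34 to 0.58) and PMD-Sen on days 1 and 6 (0.47 and 0.58).

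On day 16 DUSP6 was back near untreated, with log2 fold changes of -0.09 after SDS and 0.13 after KCl and 1240 and 1344 reads after DXR, none called. An opposite-strand gene, AC024909.2, shares 1632 exon bases with DUSP6 in GENCODE v29, and whether the counting used strand is not given in the sources used here. The day 6 pairs of PMD-Sen (1619 and 2263) and Ca2+-Sen (1709 and 2159) were wide, and both calls ended without the smaller treated library (0.32 and 0.40), as did PMD-Sen day 1 (0.28) and Ca2+-Sen day 4 (0.36). DDR-Sen day 8 ended without the larger treated library (0.37). Ca2+-Sen day 2 and DDR-Sen day 3 (both 0.34) ended without any 1 library, at values from 0.28 to 0.41.

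DUSP10 acts on p38 and JNK rather than ERK, and it was called only on day 0. SDS lowered it from 1109 and 1271 normalised reads to 789 and 626 (-0.75 ± 0.16, adjusted p = 1.76e-05). DXR raised it to 1991 and 1806 (0.68 ± 0.13, adjusted p = 2.35e-06). KCl left it at 1177 and 1205, inside the untreated range. In the 22 later or RS comparisons values ran from -0.05 to 0.32 without a call.

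SPRY1, a Sprouty inhibitor of receptor-driven RAS signalling, had the widest range of the 10 genes, with 10.2-fold between its highest and lowest group. Untreated libraries agreed at 116 and 117 normalised reads. SDS cut the gene to 20 and 34 on day 0, from 21 reads at the fewest (-2.11 ± 0.46, adjusted p = 2.00e-05). It stayed low with 45 and 51 on day 1 (-1.28) and 48 and 51 on day 2 (-1.23), all called, and the pairs were below untreated on days 3 and 4 without a call. On day 16 the pair was above untreated but far apart, 131 and 261 (0.75 ± 0.37, adjusted p = 0.148).

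After KCl every SPRY1 pair of days 0 to 4 lay below untreated, with log2 fold changes from -0.20 to -0.85 and no call. The day 6 pair, 164 and 169, was above untreated without a call (0.51 ± 0.29, adjusted p = 0.331). On day 8 it stood at 257 and 292, its peak (1.24 ± 0.24, adjusted p = 1.99e-06). DXR brought no call. The day 1 call in PMD-Sen ended without the larger treated library (-1.18).

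SPRY2 and SPRY4, the other Sprouty inhibitors, both rose between day 0 and day 1 after SDS and KCl. After DXR, SPRY2 was near untreated on day 1, at 995 and 1112 (0.08, not called). SPRY4 held 1559 and 1909 normalised reads in untreated cells. It was called lower on day 0 of PMD-Sen (1383 and 1268, -0.39 ± 0.14) and of Ca2+-Sen (1392 and 1176, -0.43 ± 0.13). One day after the wash it stood at 3401 and 4148 in PMD-Sen (1.12 ± 0.13, adjusted p = 3.32e-17), 2874 and 2970 in Ca2+-Sen (0.75 ± 0.11, adjusted p = 2.67e-10) and 2518 and 2886 in DDR-Sen (0.64 ± 0.12, adjusted p = 2.83e-06). All 6 day 1 libraries were above both untreated ones.

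The SPRY4 rise remained called on day 2 in PMD-Sen (0.42) and DDR-Sen (0.38). Falls followed: day 4 in PMD-Sen (-0.60) and DDR-Sen (-0.35), day 8 in Ca2+-Sen (1060 and 1128, -0.66 ± 0.12) and DDR-Sen (-0.38), and day 16 in PMD-Sen (-0.68) and DDR-Sen (-0.59). Day 6 interrupted the falls in DDR-Sen with 2537 and 2116 (0.43). With 14 calls in 25 tables SPRY4 was called most often of the 10. Calls of size 0.35 to 0.43 ended without 1 untreated library: the smaller for PMD-Sen and Ca2+-Sen day 0 (-0.23 and -0.28) and DDR-Sen days 4 and 8 (-0.20 and -0.23), the larger for day 2 of PMD-Sen and DDR-Sen (0.27 and 0.25) and DDR-Sen day 6 (0.29). Each of those 7 also ended without 1 treated library (sizes 0.28 to 0.36), and DDR-Sen day 16 without the smaller untreated one (-0.44).

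SPRY2 held 911 and 1078 normalised reads in untreated cells. KCl cut it on day 0 to 309 and 416, its lowest level (-1.46 ± 0.17, adjusted p = 1.11e-16), and 1 day later it stood at 1465 and 1478, above untreated (0.57 ± 0.12, adjusted p = 5.25e-05). SDS left it at 1102 and 993 on day 0 and raised it on day 1 to 1685 and 2548, a wide pair (1.09 ± 0.32, adjusted p = 0.00464). That call ended without the larger untreated library (0.97) or the smaller treated one (0.76).

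Late SPRY2 levels were below untreated after SDS and DXR. Day 16 was called in PMD-Sen (697 and 568, -0.65 ± 0.19) and DDR-Sen (609 and 735, -0.57 ± 0.17), and day 8 in Ca2+-Sen (588 and 551, -0.80 ± 0.14, adjusted p = 5.72e-08). DDR-Sen day 0 was called at -0.40 and PMD-Sen day 2 at 0.46. Without the smaller untreated library the calls of PMD-Sen day 16 (-0.52), DDR-Sen day 0 (-0.28) and DDR-Sen day 16 (-0.44) ended; each also ended without 1 treated library (-0.51, -0.26 and -0.44). PMD-Sen day 2 ended without the larger untreated library (0.34).

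SPRED1 and SPRED2, relatives of Sprouty that hold RAS in check together with neurofibromin, varied little: 1.82-fold and 1.81-fold lay between their highest and lowest groups, beside 1.76-fold for DUSP6. SPRED1 held 2272 and 2386 normalised reads in untreated cells and was called on day 0 alone, in 2 directions. It fell to 1610 and 1504 after SDS (-0.58 ± 0.12, adjusted p = 4.28e-06) and to 1800 and 1642 after DXR (-0.44 ± 0.12, adjusted p = 0.00112), and rose to 2849 and 2804 after KCl (0.28 ± 0.09, adjusted p = 0.00572). The KCl call ended without the larger untreated library (0.25). SPRED2 (1108 and 1092 in untreated cells) rose to 1576 and 1501 after SDS on day 0 (0.48 ± 0.13, adjusted p = 6.10e-04). Its only other call was DDR-Sen day 16, at 861 and 842 (-0.37), which ended without any 1 library (-0.35 to -0.39).

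To compare the treatments with each other, differences of their log2 fold changes were tested on days 0, 1 and 16, again with adjustment over all tested genes. Each difference was given the errors of both comparisons, so the error of the untreated pair, which cancels in the difference, was counted as well. Taking it as 50% of each squared SE and leaving it out raised the calls from 20 to 37. The shares of all tested genes rose too. On day 0 this setting called 8 genes for PMD-Sen against Ca2+-Sen (53% of tested genes). It called 6 for PMD-Sen against DDR-Sen (43.4%) and 6 for Ca2+-Sen against DDR-Sen (51.7%). Day 0 separated them most. PMD-Sen and Ca2+-Sen differed in 7 of 10 genes, where 38.6% of tested genes differed. PMD-Sen and DDR-Sen differed in 5 (28.6%) and Ca2+-Sen and DDR-Sen in 4 (37.1%). Among these 16 differences the pairs of libraries compared did not overlap in any. Pairs were also apart for some uncalled genes, SPRED2 between PMD-Sen and Ca2+-Sen among them, and the share over all tested genes is not known.

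DUSP1 was 2.63-fold higher in PMD-Sen than in Ca2+-Sen on day 0 and 2.82-fold higher than in DDR-Sen (log2 differences 1.40 ± 0.18 and 1.49 ± 0.19, adjusted p = 4.05e-13 and 3.40e-13). DUSP4 ran the other way, 4.59-fold lower in PMD-Sen than in Ca2+-Sen and 6.64-fold lower than in DDR-Sen (-2.20 ± 0.54 and -2.73 ± 0.53, adjusted p = 2.60e-04 and 3.12e-06). The treatment that raised DUSP1 on day 0 was not one of those that raised DUSP4.

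KCl set DUSP5 and SPRY2 apart. DUSP5 was lower in Ca2+-Sen than in PMD-Sen by 2.01 ± 0.18 and than in DDR-Sen by 1.83 ± 0.18 on the log2 scale, and SPRY2 by 1.54 ± 0.23 and 1.06 ± 0.23; all 4 were called. SDS set SPRY1 apart, lower than in Ca2+-Sen by 1.43 ± 0.55 and than in DDR-Sen by 2.36 ± 0.56, both called. DUSP10 took 3 distinct levels, DDR-Sen above Ca2+-Sen by 0.67 ± 0.18 and Ca2+-Sen above PMD-Sen by 0.75 ± 0.20. SPRED1 was higher in Ca2+-Sen than in either of the others (0.86 and 0.72), and SPRED2 higher in PMD-Sen than in DDR-Sen (0.66 ± 0.18).

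DUSP6 and SPRY4 did not differ between any 2 treatments on day 0 by a called amount. The 95% intervals of the DUSP6 differences ran from -0.40 to 0.34 for PMD-Sen against Ca2+-Sen and from -0.49 to 0.25 for PMD-Sen against DDR-Sen, and those of SPRY4 from -0.33 to 0.42 and from -0.61 to 0.30, so differences within these bounds cannot be told from none.

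**Figure D3:**
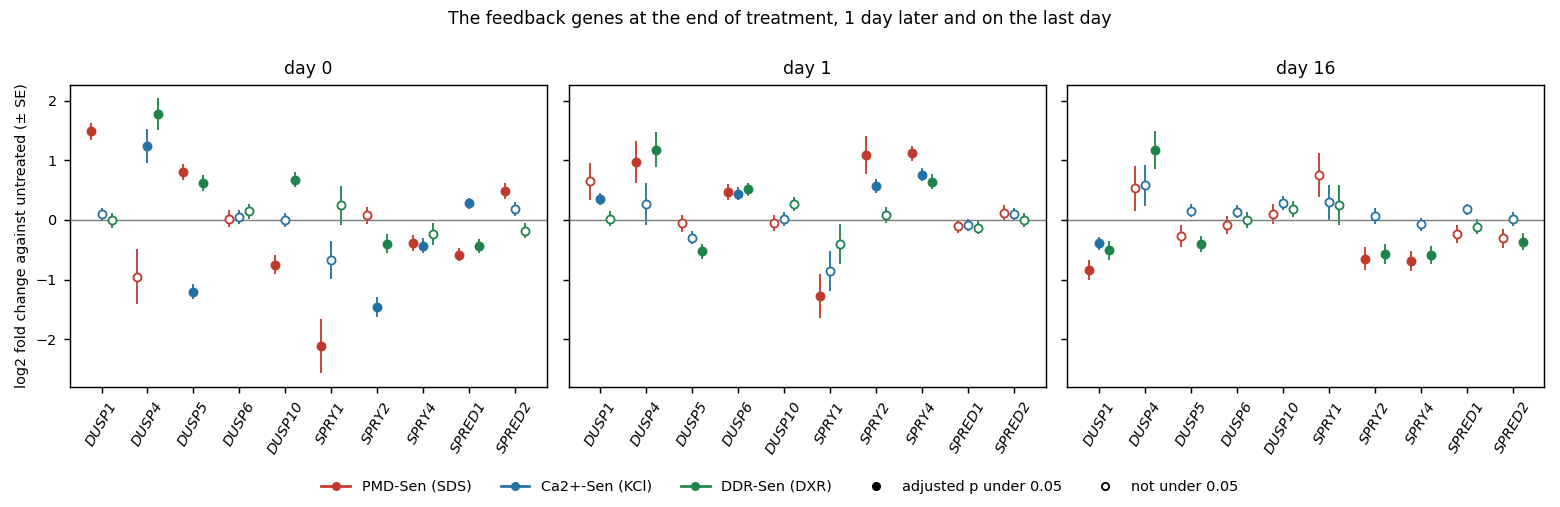
Log2 fold change against untreated with its SE (vertical axis) for the 10 genes on days 0, 1 and 16, by treatment; filled points have adjusted p under 0.05. Spread between treatments is widest on day 0, where DUSP4 runs from -0.96 to 1.78, and on day 1 DUSP6 lies between 0.44 and 0.52 in all 3.

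One day later the treatments were closer. PMD-Sen and Ca2+-Sen differed in none of the 10 genes (4.42% of tested genes; 1 gene, SPRY4, had an unadjusted normal p under 0.05), Ca2+-Sen and DDR-Sen in none (7.74%; 3 genes at unadjusted p), and PMD-Sen and DDR-Sen in 2 (12.3%). Those 2 were SPRY2, higher in PMD-Sen by 1.01 ± 0.34, and SPRY4, higher by 0.48 ± 0.18 (adjusted p = 0.0313 and 0.0493). The small counts depended on the untreated error: with it left out, PMD-Sen and Ca2+-Sen differed in SPRY4 (11.9% of tested genes), Ca2+-Sen and DDR-Sen in DUSP1, DUSP4 and SPRY2 (17.7%), and PMD-Sen and DDR-Sen in DUSP1 and DUSP5 as well (23.5%). For DUSP6 the 95% intervals of the day 1 differences were -0.31 to 0.35, -0.39 to 0.29 and -0.37 to 0.22.

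On day 16 Ca2+-Sen exceeded DDR-Sen in DUSP5 (by 0.56 ± 0.18) and SPRY2 (by 0.63 ± 0.21), both called, where 6.38% of tested genes differed. PMD-Sen differed from neither in any of the 10 genes: 0 calls against Ca2+-Sen (2.72% of tested genes; 5 genes at unadjusted normal p under 0.05) and 0 against DDR-Sen (0.195%; none at unadjusted p). Against Ca2+-Sen, 8 of the 10 PMD-Sen pairs lay wholly below, among them SPRY2 (adjusted p = 0.0641) and SPRY4 (adjusted p = 0.0846). The share of such pairs over all tested genes is not known, as single libraries were recovered for the 10 genes only. With the untreated error left out, 4 genes differed between PMD-Sen and Ca2+-Sen (DUSP1, SPRY2, SPRY4 and SPRED1, where 10.4% of tested genes did) and 5 in place of 2 between Ca2+-Sen and DDR-Sen (15.7%), but still 0 between PMD-Sen and DDR-Sen (1.35%). SPRY2 also differed between PMD-Sen and Ca2+-Sen when only genes with a mean level of at least 100 were tested.

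The first day after the wash was also tested within each treatment. In PMD-Sen 7 of 10 genes changed between day 0 and day 1, where 29% of tested genes did. DUSP4, SPRY4, SPRY2, DUSP10 and SPRED1 rose by 1.93 ± 0.58, 1.51 ± 0.19, 1.01 ± 0.35, 0.70 ± 0.21 and 0.47 ± 0.16 on the log2 scale, while DUSP5 fell by 0.86 and DUSP1 by 0.84. DUSP1 and DUSP5, which SDS had raised on day 0, went down on the day that 5 other feedback genes went up. Their fall is measured against the same day 0 libraries in which they were high, so part of it can follow from that. The same limit holds for the rises of DUSP10, SPRY4 and SPRED1, which were called lower in those day 0 libraries. It also holds for DUSP4, whose day 0 pair lay below untreated without a call. On day 1 both DUSP1 libraries (3932 and 5703) were still above untreated.

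In Ca2+-Sen 5 genes changed (36.5% of tested genes). SPRY2 rose by 2.03 ± 0.21, a 4.08-fold increase (adjusted p = 9.90e-21), SPRY4 by 1.18 ± 0.17, DUSP5 by 0.91 ± 0.17 and DUSP6 by 0.39 ± 0.16, and SPRED1 fell by 0.37. In the same day 0 libraries SPRY2, SPRY4 and DUSP5 had been called lower and SPRED1 higher, so part of these changes can follow from that. In DDR-Sen 2 genes changed (3.54%): SPRY4 rose by 0.87 ± 0.22 (adjusted p = 0.00511) and DUSP5 fell by 1.15 (adjusted p = 2.23e-07). DUSP5 had been called higher in the DDR-Sen day 0 libraries, so the same limit holds for its fall. With the untreated error left out DDR-Sen had 5 changed genes, DUSP6, DUSP10 and SPRY2 added (12.3%). PMD-Sen then gained DUSP6 and SPRED2 (42.8%) and Ca2+-Sen gained DUSP1 and DUSP4 (50.6%). In the main test SPRY4 was the only gene called higher over this day after all 3 treatments. With the untreated error left out, DUSP6 and SPRY2 were called higher after all 3 as well. DUSP5 changed after all 3 with the sign depending on the treatment.

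**Figure D4:**
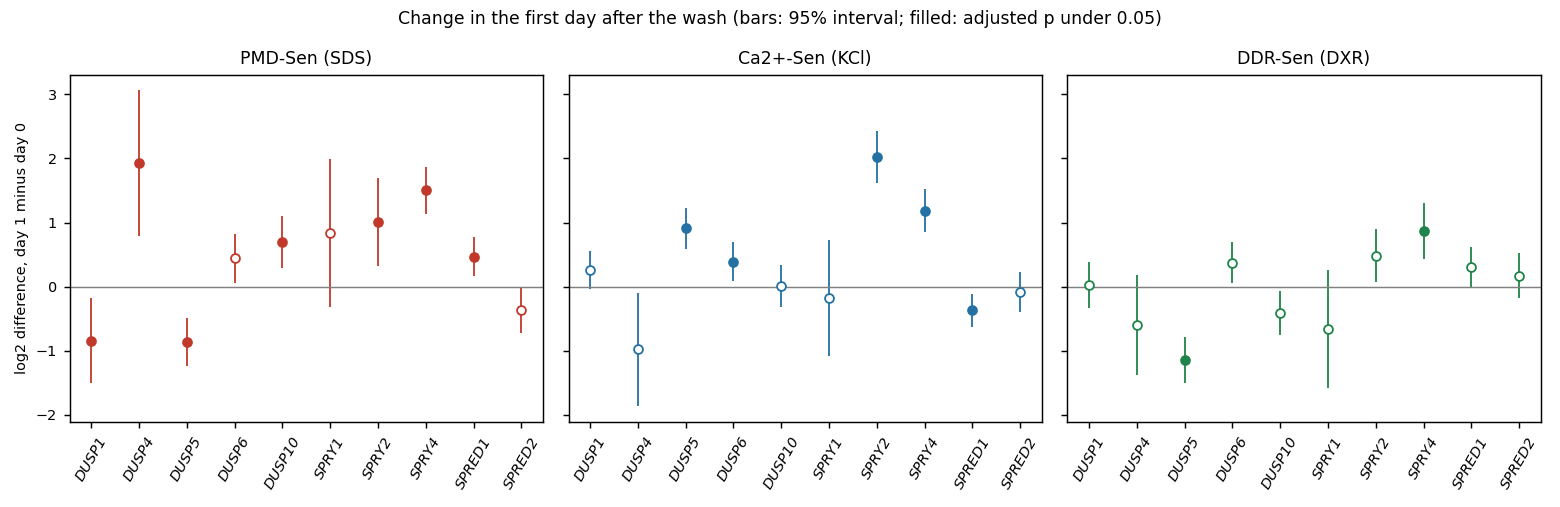
Day 1 minus day 0 difference of the log2 fold changes (vertical axis, with 95% interval) for each gene in the 3 treatments; filled points have adjusted p under 0.05. SPRY4 is filled and above 0 in every panel (1.51, 1.18 and 0.87), whereas DUSP5 is below 0 after SDS and DXR and above 0 after KCl.

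Between day 8 and day 16 called changes were found in Ca2+-Sen, and in the other treatments only when the shared untreated error was left out. DUSP1 rose by 0.94 ± 0.16, SPRY2 by 0.87 ± 0.19, DUSP5 by 0.72 ± 0.16 and SPRY4 by 0.59 ± 0.17, where 7.16% of tested genes changed. The library pairs of the 2 days did not overlap for these or for any other of the 10 genes, called or not. The share of such pairs over all tested genes is not known, as single libraries were recovered for the 10 genes only. The 4 called genes are the same 4 that were called lower against untreated on day 8. Both comparisons use the same 2 day 8 libraries, so the 2 results are not independent. Day 8 was also the day on which the fibroblast and endothelial marker sums of the series were highest. PMD-Sen and DDR-Sen had 0 calls each (0.107% and 0.376% of tested genes), with 2 genes each at an unadjusted normal p under 0.05. With the shared error left out they had 1 call each, SPRY2 in PMD-Sen (3.31% of tested genes) and DUSP5 in DDR-Sen (1.77%), and Ca2+-Sen gained SPRY1 (16.9%), 7 calls in all in place of 4.

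The day 16 cells were finally set against RS, the replicative form. No gene differed by a called amount after SDS (0.685% of tested genes; 3 genes at unadjusted normal p under 0.05), KCl (4.25%; 1 gene) or DXR (0.148%; 2 genes). DUSP4 levels were below those of RS after all 3, at log2 differences of -1.63 ± 0.54, -1.58 ± 0.52 and -0.99 ± 0.51 (adjusted p = 0.175, 0.0534 and 1.00). None of these passed, although every day 16 library lay below both RS libraries. With the untreated error left out there were 5 calls: DUSP4 after SDS and KCl, DUSP1 after SDS, and SPRY4 after SDS and DXR, where 4.87% (SDS), 12.8% (KCl) and 0.987% (DXR) of tested genes were called. Testing only genes with a mean level of at least 100 called DUSP4 after KCl. RS itself held SPRY1 at 201 and 138, above untreated but not called (0.55 ± 0.33, adjusted p = 0.245), and SPRY4 at 1921 and 1787, level with untreated (0.10 ± 0.18).

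Around the feedback genes, the receptors at the top of the pathway were called lower more often than higher (56 and 23 of 175 values for 7 receptors), against 10.4% lower and 8.94% higher for all tested genes over the same 25 tables. On day 0 of PMD-Sen 5 of 7 were called lower (20.2% of tested genes) and none higher (19.8%), with a median log2 fold change of -0.68 against -0.0045 for all tested genes. PDGFRA, a receptor for platelet-derived growth factor, spanned the widest range: it fell from 8307 to 1552 normalised reads after SDS (-2.42 ± 0.13) and to 4399.8 after DXR (-0.92 ± 0.15), and rose to 21729 after KCl (1.39 ± 0.09). On day 16 it was higher in PMD-Sen (0.73 ± 0.16) and Ca2+-Sen (0.66 ± 0.08). MET, the hepatocyte growth factor receptor, was called lower in 14 tables and higher in 2, with -1.11 ± 0.11 on day 0 of Ca2+-Sen and -0.88 ± 0.18, -0.32 ± 0.10 and -0.47 ± 0.12 on day 16 of PMD-Sen, Ca2+-Sen and DDR-Sen. Among the receptors called in DDR-Sen, IGF1R had the highest value on day 0 (0.52 ± 0.11) and ERBB2 on day 16 (0.60 ± 0.13).

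In the RAS-ERK cascade (18 genes) 45 of 450 values were called higher and 65 lower, beside the same shares of 8.94% and 10.4% for all tested genes. NRAS, a RAS gene, made up 23 of the 65: it was called lower in 23 of 25 tables, and its day 16 log2 fold changes were -1.12 ± 0.14 (PMD-Sen), -0.43 ± 0.09 (Ca2+-Sen) and -1.34 ± 0.13 (DDR-Sen), beside -1.08 ± 0.22 for RS. MAPK3, which encodes an ERK kinase, was called higher in 17 tables, 0.42 ± 0.09 on day 16 of Ca2+-Sen and 0.47 ± 0.14 in RS among them, but lower on day 0 of PMD-Sen (-0.60 ± 0.12) and Ca2+-Sen (-0.41 ± 0.10). KSR1, a scaffold of the cascade, had the highest value of this list on day 0 of Ca2+-Sen (1.07 ± 0.13) and DDR-Sen (0.73 ± 0.19) and on day 16 of PMD-Sen and DDR-Sen (0.67 and 0.70). SOS2 was the highest called gene of PMD-Sen day 0 (0.50 ± 0.15) and HRAS the lowest of DDR-Sen day 0 (-2.05 ± 0.45). On day 0 of Ca2+-Sen 8 genes of this list were called higher and 5 lower, where 23.6% and 26.5% of all tested genes were.

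The JNK and p38 cascades (19 genes) had 38 calls each way in 475 values, beside 8.94% higher and 10.4% lower for all tested genes. Of the calls higher, 9 were on day 0 of Ca2+-Sen, where 23.6% of all tested genes were called higher. MAP3K5, a stress-activated kinase upstream of JNK and p38, was called lower in 15 tables, with -1.51 ± 0.13 on day 0 of PMD-Sen, -0.83 ± 0.12 and -0.64 ± 0.14 on days 0 and 16 of DDR-Sen and -0.83 ± 0.16 in RS. MAPK11, a p38 kinase, fell by 1.66 on day 0 of Ca2+-Sen and was higher on day 16 of PMD-Sen (0.59 ± 0.17) and DDR-Sen (0.56 ± 0.16). MAPK10, a JNK kinase, was higher on day 0 of Ca2+-Sen (1.33 ± 0.23) and in RS (1.09 ± 0.27), and the p38 kinase MAPK13 on day 0 of DDR-Sen (1.19 ± 0.19). MAP3K4 was the highest called gene of the list in PMD-Sen on day 0 (0.68 ± 0.16), and MAPK8 was the lowest called gene there on day 16 (-0.55 ± 0.19).

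**Figure D5:**
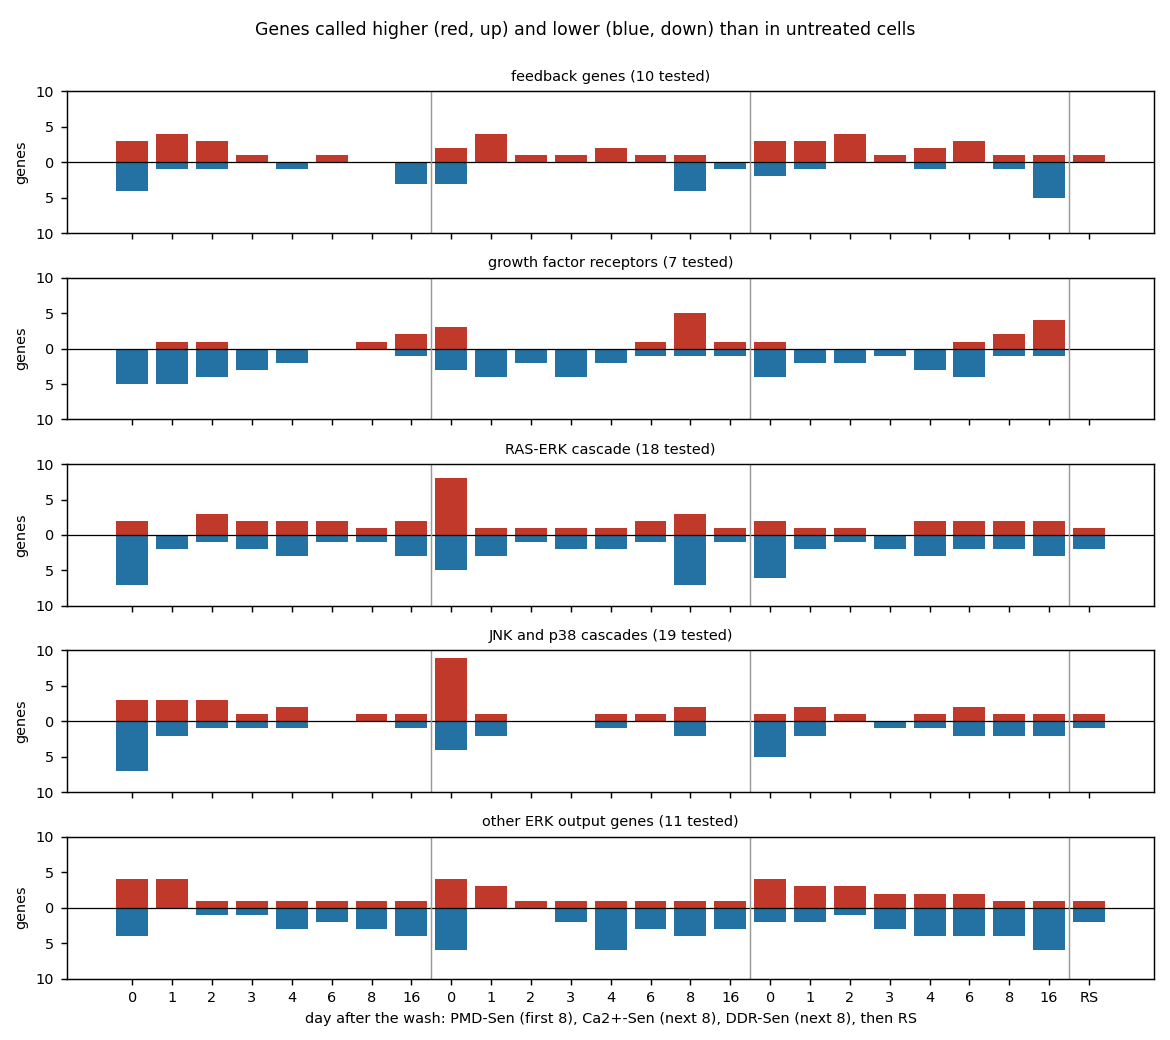
Number of genes called higher (red, upward) and lower (blue, downward) than untreated in each comparison, for the feedback genes and 4 other lists of the pathway; each list's tested genes are given above its panel. On day 1 of PMD-Sen 4 feedback genes and 4 other ERK output genes are called higher, and the cascades have their tallest upward bars, 8 and 9 genes, on day 0 of Ca2+-Sen. Of all tested genes 9.63% are called higher on day 1 of PMD-Sen and 23.6% on day 0 of Ca2+-Sen.

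Other genes that ERK switches on (11 of 12 tested) had 46 calls higher and 70 lower in 275 values, where 8.94% and 10.4% of all tested genes were called. A few genes held most of these calls. CCND1 made up 21 of the 46, and FOSL1, EGR1 and ETV4 made up 19, 14 and 12 of the 70. On day 1, when SPRY4 and DUSP6 were up, 4, 3 and 3 genes of this list were called higher in PMD-Sen, Ca2+-Sen and DDR-Sen and 0, 0 and 2 lower. All tested genes had 9.63%, 5.34% and 8.5% called higher and 10%, 7.13% and 11% lower on that day. On day 16 the list had 1 called higher each time and 4, 3 and 6 lower, where 9.63%, 5.79% and 13.2% of all tested genes were higher and 11.5%, 6.08% and 16.7% lower. CCND1, the cell-cycle gene cyclin D1, was the 1 higher gene each time (0.50 ± 0.17, 0.60 ± 0.06 and 0.73 ± 0.11) and in RS (0.83 ± 0.14), but fell by 1.17 on day 0 of PMD-Sen.

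ETV4, a transcription factor induced by ERK, had the lowest called value of this list on day 16 of PMD-Sen (-1.45 ± 0.23) and DDR-Sen (-1.75 ± 0.23) and in RS (-1.42 ± 0.22). EGR1, an immediate-early factor, had it in Ca2+-Sen on day 0 (-1.85 ± 0.18) and day 16 (-1.02 ± 0.16), and FOSL1, a partner of JUN in the AP-1 factor, in DDR-Sen on day 0 (-0.94 ± 0.11). FOS, low in untreated cells at 28.4 normalised reads, had the highest called value of the list on day 0 after all 3 treatments (2.45 ± 0.53, 3.13 ± 1.05 and 2.91 ± 1.18). Of 7 further DUSP, SPRY and SPRED genes only DUSP2, DUSP7, DUSP8 and SPRED3 reached the filter, with 1 call higher and 10 lower in 100 values, near or under the shares over all tested genes. DUSP7, a relative of DUSP6, was lower on day 16 of PMD-Sen (-0.60 ± 0.18) and DDR-Sen (-0.63 ± 0.17), and DUSP8 fell by 3.42 ± 1.43 on day 0 of PMD-Sen from 20.6 reads.

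The genes whose log2 level followed each feedback gene most closely over the 26 groups were listed among 10568 genes with a mean level of at least 100, as a description of points that share the treatments. None of the 20 nearest genes was another feedback gene. SPRY2 had the closest partner, SLC25A22 (Pearson r = 0.96), then MRPL15 (0.92). DUSP1 went with YRDC (0.94) and SGTB (0.93), SPRY4 with LRRC8A and RNF128 (both 0.92), SPRED2 with RASGRF2 (0.93) and CLDN12 (0.89), and DUSP10 with PML (0.93) and DNAI3 (0.91). SPRY1 went with IFITM1 (0.91) and CEMIP (0.90), SPRED1 with DDX20 (0.86), DUSP5 with FAM86FP (0.85) and DDX49 (0.84), and DUSP4 with KALRN (0.84). DUSP6 had the loosest partners, RNF152 (0.76) and DIAPH2 (0.73). Within the 10, SPRY2 and SPRY4 had r = 0.72, DUSP1 and SPRED2 also 0.72, and DUSP1 and SPRY1 ran opposite at -0.86.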

How the data were processed

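mRNA-seq tables of 52 WI-38 libraries, 2 in each of 26 groups named by the labels, were used as deposited. The submitters' processing notes name Trim Galore, HISAT2, HTSeq, featureCounts and DESeq2 and the build GRCh38; versions, roles and strand settings are not given in the sources used here. The 52 files hold 25 distinct tables of the authors' comparisons. For each gene the authors deposited a mean normalised read count of the 4 libraries compared (a signal that is never negative), the log2 ratio of treated to untreated and its SE, and p-values before and after adjustment. There is no column of single libraries.

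Group levels followed from the mean and the fold change, put on 1 scale through 8645 genes with a mean over 200 in every table. Genes with a mean level of at least 10 were tested (14898). Deposited p-values were adjusted by Benjamini-Hochberg over these and called under 0.05. Differences between tables were tested by dividing each difference by its SE, both SEs added in quadrature (two-sided normal p, same adjustment); the untreated error then counts in both, so calls are too few. Whole reads of the 10 genes per library were solved from the means and checked by refitting; the scripts (Python 3.11.15, numpy 2.4.6, scipy 1.17.1) were tested on simulated data. Depth per library, about 15.4 to 58.0 M reads, limits SPRY1 and DUSP4 most. Labels give separate samples; p-values measure the spread between them.

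Gene positions came from GENCODE v29 (GRCh38) and promoter windows from RefSeq (GRCh38.p14, chromosome 8 left out). The 10 genes and the pathway lists were chosen with earlier results of these data known. Named from each list were the called genes with the highest and lowest log2 fold change on days 0 and 16 and in RS, and for each of the 10 genes the 2 with the highest correlation (some are not reported here). Alternatives were other filters, a size threshold, 2 other scalings, the deposited adjusted p-value, leaving the shared untreated error out and, chosen after seeing the data, leaving out each library.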

Additional observations from a re-analysis of the deposited data

Results flagged for a closer look

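The effects of 2 treatments on the same day, or of 1 treatment on 2 days, differed by the test of the difference itself (adjusted p under 0.05) for the values listed here, all as log2 differences. PMD-Sen minus Ca2+-Sen on day 0 was 1.40 for DUSP1, -2.20 for DUSP4, 2.01 for DUSP5, -0.75 for DUSP10, -1.43 for SPRY1, 1.54 for SPRY2 and -0.86 for SPRED1. PMD-Sen minus DDR-Sen on day 0 was 1.49 for DUSP1, -2.73 for DUSP4, -1.42 for DUSP10, -2.36 for SPRY1 and 0.66 for SPRED2. Ca2+-Sen minus DDR-Sen on day 0 was -1.83 for DUSP5, -0.67 for DUSP10, -1.06 for SPRY2 and 0.72 for SPRED1. On day 1 PMD-Sen minus DDR-Sen was 1.01 for SPRY2 and 0.48 for SPRY4, and on day 16 Ca2+-Sen minus DDR-Sen was 0.56 for DUSP5 and 0.63 for SPRY2.

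Day 1 minus day 0 in PMD-Sen was -0.84 for DUSP1, 1.93 for DUSP4, -0.86 for DUSP5, 0.70 for DUSP10, 1.01 for SPRY2, 1.51 for SPRY4 and 0.47 for SPRED1. In Ca2+-Sen it was 0.91 for DUSP5, 0.39 for DUSP6, 2.03 for SPRY2, 1.18 for SPRY4 and -0.37 for SPRED1, and in DDR-Sen -1.15 for DUSP5 and 0.87 for SPRY4. Day 16 minus day 8 in Ca2+-Sen was 0.94 for DUSP1, 0.72 for DUSP5, 0.87 for SPRY2 and 0.59 for SPRY4. Groups of 2 libraries are too small for a test of single outlying libraries.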

How the results depend on the processing

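Asking for a log2 difference of at least 1 as well cut the calls against untreated from 22 to 6 in PMD-Sen (3 higher, 3 lower), from 20 to 5 in Ca2+-Sen (2 higher, 3 lower) and from 28 to 4 in DDR-Sen (4 higher, 0 lower), and the differences between treatments from 20 to 12, day 1 against day 0 from 14 to 6 and day 16 against day 8 from 4 to 0. The share of all tested genes that passed this threshold is not given here, so these drops cannot be set beside those of genes at large. With the shared untreated error left out, calls rose to 37 between treatments, 7 for day 16 against day 8 and 5 for day 16 against RS. The shares of all tested genes called rose as well. With a mean level of at least 100, day 16 against RS had 1 call in place of 0. No filter, the deposited adjusted p-value and both other scalings kept each count of calls on the feedback genes within 1.5 times, and these and the filter of 100 did so for the pathway lists where they were run. Of the 71 single calls, 70 held under scaling by library totals (SPRED2 on day 16 of DDR-Sen did not) and 70 under centring on the median (SPRY2 on day 0 of DDR-Sen did not); none reversed. Leaving out 1 library, an alternative chosen after seeing the data, kept 35 of the 71 and ended 36 under at least 1 omission, with no reversal; fewer samples alone widen the error. Calls then ranged from 20 to 21 in DDR-Sen (11 to 18 higher, the fewest without the larger untreated library, and 3 to 9 lower, the fewest without the smaller one), from 13 to 20 in Ca2+-Sen (7 to 13 higher, the fewest without the smaller treated library) and from 19 to 20 in PMD-Sen. Differences between tables were not refitted without single libraries. No paired analysis was possible because the deposited columns carry no replicate number. Depth limits DUSP4 and SPRY1, whose untreated libraries hold 56 to 94 reads.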
